A study of Drosophila melanogaster with 12 samples.

Results

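The 9 genes described here, dj, djl, Mst87F, Mst98Ca, Mst98Cb, Mst77F, ocn, janB and betaTub85D, are active late in the male germ line of Drosophila melanogaster. They were taken from a list of gene symbols that was drawn up with earlier results of these data known, with no cut on a measured value, and each was present on the array through 1 probe set naming that gene alone, 9 of the 11982 genes named singly on the platform. Total RNA of adult flies had been hybridised to 12 oligonucleotide arrays. The flies were the Canton S strain, which served as wild type, or a mutant of the nuclear receptor DHR96, whose arrays carry the short name E25 and were assigned to the mutant by elimination. After an overnight fast all flies had received sucrose, either plain or with phenobarbital at 0.3%, a barbiturate that induces drug-metabolising enzymes, and each of the 4 combinations was measured on 3 arrays. The labels give no sex, age or rearing of the flies and do not describe the mutant allele. Nor do they tell whether replicate arrays stem from separate cultures, so p-values measure the spread between arrays, which may be technical.

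Spermatogenesis in the fly begins with transcription in spermatocytes, and most messages needed after meiosis are made then, stored, and translated days later as the round spermatid elongates into a sperm with a very long tail. The 9 genes cover several steps of this programme. The testis-specific beta-tubulin betaTub85D builds the meiotic spindle and the axoneme. Mst87F, Mst98Ca and Mst98Cb encode proteins of the Mst(3)CGP family, named for repeats of cysteine, glycine and proline, which lie in the sperm tail. Mst77F is a linker histone-like protein of condensing sperm chromatin. Don juan, encoded by dj, is a basic protein of spermatids that is found along the sperm tail, and djl is its neighbouring paralog. The genes janB and ocn belong to the janus gene group, which is expressed in the testis. By the order of genes in the Release 6 plus ISO1 MT table, dj and djl are direct neighbours, as are Mst98Ca and Mst98Cb, and ocn and janB. Mst77F lies on chromosome arm 3L and the other 8 genes on arm 3R. No sequences of these genes were given among the reference tables, so none are printed.

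The values are log2 of the deposited normalized intensities. Median intensities per array ran from 38.5 to 47.5, and 44.4% to 45.6% of the 18769 probe sets of an array had a log2 value under 4. A probe set whose mean is under 4 is called dim. Hr96, the gene of the mutated receptor, lay between 8.20 and 8.85 on the 6 wild-type arrays. It lay between 9.91 and 10.30 on the 6 arrays assigned to the mutant, so its transcript was higher there. Directions given for the mutant are those of the arrays so assigned. Markers of both sexes were present. The 17 measured accessory gland genes of males summed to between 55099 and 207143 units of intensity per array, and 0 of them were dim. The 20 measured yolk, eggshell and oocyte genes of females summed to between 60506 and 94648 in wild type on sucrose and between 49491 and 73545 on phenobarbital, against 89807 to 125532 and 84641 to 110006 in the mutant. Of these female genes 2, Vm32E and Vm26Ac, were dim. In RNA of whole flies, fewer cells of a type and less RNA per cell cannot be told apart.

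The tail and spindle tubulin was measured well above the dim range in every group. In wild type on sucrose, betaTub85D stood at 11.97, 12.69 and 12.17 on the 3 arrays, and on phenobarbital at 12.30, 12.12 and 11.58. The mutant arrays read 12.48, 12.03 and 12.73 on sucrose and 11.76, 11.63 and 11.14 on phenobarbital. The wild-type groups overlapped, while each mutant phenobarbital array lay below each mutant sucrose array. Group means were 12.28 ± 0.37, 12.00 ± 0.37, 12.41 ± 0.35 and 11.51 ± 0.33 in the same order (SD, n = 3).

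The Mst(3)CGP genes of the sperm tail were likewise lowest on a mutant phenobarbital array. Mst87F read 12.32, 12.97 and 12.57 on the wild-type sucrose arrays, 12.68, 12.63 and 12.01 on the wild-type phenobarbital arrays, 12.65, 12.29 and 13.07 on the mutant sucrose arrays, and 12.15, 12.12 and 11.66 on the mutant phenobarbital arrays. The mutant groups did not overlap and the wild-type groups did. Mst98Ca read 12.12, 12.81 and 12.36, then 12.49, 12.42 and 11.74, then 12.66, 12.28 and 13.02, and last 12.02, 11.94 and 11.45 in the same groups. Its highest array was the third mutant array on sucrose and its lowest the third mutant array on phenobarbital, as for Mst87F. The adjacent Mst98Cb read 9.98, 10.84 and 9.99 on the wild-type sucrose arrays, 10.40, 10.23 and 9.76 on the wild-type phenobarbital arrays, 10.57, 9.96 and 10.86 on the mutant sucrose arrays, and 9.97, 9.81 and 9.05 on the mutant phenobarbital arrays. Here the mutant groups overlapped by a small margin, because the second sucrose array (9.96) lay just under the first phenobarbital array (9.97).

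Mst77F, the chromatin protein of the sperm head, read 11.76, 12.46 and 11.78 in wild type on sucrose and 12.05, 11.96 and 11.33 in wild type on phenobarbital. Its mutant arrays read 12.09, 11.75 and 12.51 on sucrose and 11.52, 11.39 and 10.74 on phenobarbital. Only the mutant groups were separate.

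The don juan pair differed in how well it was measured. The djl probe set read 9.51, 10.46 and 9.52 on the wild-type sucrose arrays, 9.82, 9.91 and 9.09 on the wild-type phenobarbital arrays, 10.07, 9.49 and 10.43 on the mutant sucrose arrays and 9.54, 9.44 and 8.81 on the mutant phenobarbital arrays. The groups of djl overlapped in each of the 4 comparisons of diet or genotype. The dj probe set was close to the dim limit throughout, at 4.13, 5.23 and 4.38 on the wild-type sucrose arrays, 4.51, 4.49 and 4.30 on the wild-type phenobarbital arrays, 4.82, 4.11 and 4.83 on the mutant sucrose arrays, and 4.29, 4.03 and 3.66 on the mutant phenobarbital arrays. Values so near the background of the array are shaped by its background correction, and dj was the only gene of the 9 with an array below 4. It was also the only one whose phenobarbital arrays were separate between genotypes, with each mutant array below each wild-type array.

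The janus group genes were both well measured. The ocn probe set read 12.73, 13.45 and 12.90 on the wild-type sucrose arrays, 13.15, 13.02 and 12.45 on the wild-type phenobarbital arrays, 13.06, 12.70 and 13.36 on the mutant sucrose arrays and 12.56, 12.50 and 11.92 on the mutant phenobarbital arrays. Its neighbour janB read 10.38, 11.26 and 10.48, then 10.63, 10.72 and 10.05, then 10.70, 10.28 and 11.18, and last 10.09, 10.05 and 9.44. For both genes the mutant groups were separate and the wild-type groups overlapped.

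**Figure D1:**
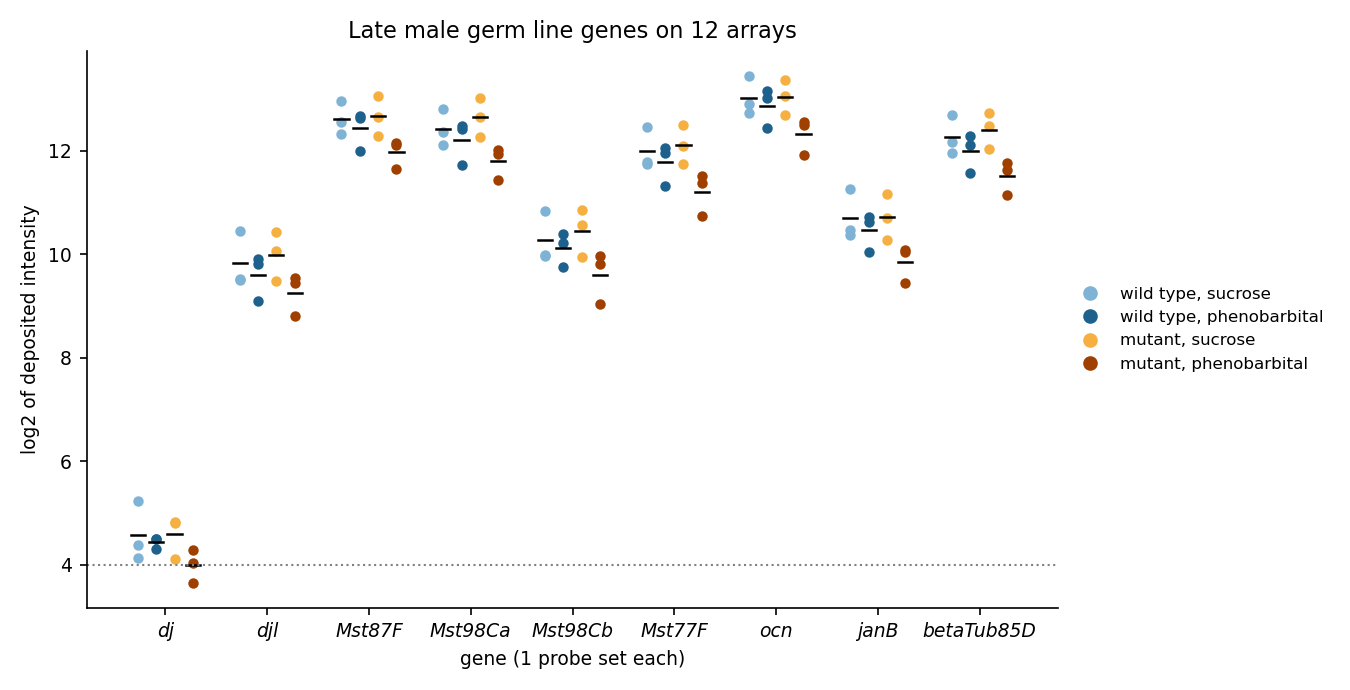
Log2 of the deposited intensity (vertical axis) of the 9 genes (horizontal axis), with 1 point per array, colours for the 4 groups of 3 arrays, and a short bar for each group mean. Values below the dotted line at 4 are called dim. The mutant phenobarbital arrays lie wholly below the mutant sucrose arrays for 6 of the 9 genes, and their group mean is the lowest of the 4 for each of the 9.

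With all 12 arrays in the fit and no pairing, no gene of the 9 was called in any comparison. A call needed an adjusted p under 0.05 (limma, Benjamini and Hochberg over all 18769 probe sets) and at least a 1.5-fold change. In wild type, phenobarbital gave 0 calls among the 9 genes, where 4.27% of all probe sets were called, and 0 of the 9 had an unadjusted p under 0.05. In 0 of the 9 did the groups separate downward, against 7.17% of all probe sets. The fitted log2 changes ran from -0.28 for betaTub85D to -0.14 for Mst98Cb, with a median of -0.21 against 0.02 over all probe sets, and adjusted p from 0.57 to 0.80 (limma). The 95% confidence intervals together spanned -1.05 to 0.65. The direction in wild type rested on single arrays: without the second sucrose array the median change was 0.04, and without the third phenobarbital array it was 0.03.

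In the mutant the same comparison gave lower values on phenobarbital that also failed the test. There were 0 calls among the 9 genes, where 4.62% of all probe sets were called. An unadjusted p under 0.05 was reached by 7 of the 9, and by 3300 of the 18769 probe sets (limma). The log2 change was -0.90 ± 0.28 for betaTub85D (SE; 1.87-fold lower, adjusted p = 0.12, limma) and -0.90 ± 0.31 for Mst77F (1.87-fold lower, adjusted p = 0.17). It was -0.86 ± 0.33 for janB, -0.85 ± 0.28 for Mst98Ca and -0.85 ± 0.35 for Mst98Cb. The others were -0.73 ± 0.37 for djl, -0.72 ± 0.28 for ocn, -0.69 ± 0.27 for Mst87F and -0.60 ± 0.30 for dj, and the largest adjusted p, that of dj, was 0.37. The median of the 9 was -0.85, against 0.003 over all probe sets, and the intervals spanned -1.64 to 0.10.

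In 6 of the 9 genes, Mst87F, Mst98Ca, Mst77F, ocn, janB and betaTub85D, the mutant phenobarbital arrays lay entirely below the mutant sucrose arrays. The same separation downward held for 11.1% of all probe sets, and for 17.8% of the 10341 that were not dim. These 6 genes share the same arrays and their values moved together, so they are not 6 separate observations. The size of the difference rested in part on 1 array of each diet. Without the third phenobarbital array the median change of the 9 was -0.57 and 1 gene had an unadjusted p under 0.05. Without the third sucrose array these were -0.63 and 1, and without the first sucrose array -0.80 and 3. In the other direction, 9 of the 9 had an unadjusted p under 0.05 without the second sucrose array (median -1.04) and without the second wild-type sucrose array (median -0.85). None was called in these fits. Across the alternatives run, the smallest adjusted p of any of the 9 ranged from 0.052, with dim probe sets removed, to 0.39, without the third phenobarbital array (limma).

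Between genotypes on the same diet no gene of the 9 was called without pairing, and on phenobarbital the call depended on whether arrays were paired. On sucrose the mutant minus wild-type differences ran from 0.003 for dj to 0.22 for Mst98Ca (median 0.12, all probe sets -0.01), with 0 calls where 0.213% of all probe sets were called and adjusted p from 0.994 to 0.999. Their intervals spanned -0.72 to 0.997. The median changed sign without the first wild-type array (-0.02) or the last mutant array (-0.08), was 0.01 without the last wild-type array, and was 0.34 without the second wild-type array and 0.30 without the second mutant array. On phenobarbital the differences ran from -0.60 for janB to -0.34 for djl (median -0.49, all probe sets -0.02), with 0 calls where 0.117% were called and adjusted p from 0.37 to 0.50. No gene of the 9 had an unadjusted p under 0.05 in either, but 6 did on phenobarbital without the third wild-type array (median -0.69). Without the third mutant array the median was -0.30. The separation of dj on phenobarbital stands against 41.5% of all probe sets, and 8.14% of those not dim, whose mutant arrays all lay lower.

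Same-numbered arrays of the 2 phenobarbital groups deviated together over all probe sets not dim, with r of 0.31, 0.35 and 0.70, although the labels do not say what a shared number means. Each of the 9 genes was itself lowest on the third array of both groups. They and probe sets of like pattern are among those behind the r values, which are thus no separate evidence for a pairing. Within these pairs the mutant array was lower for each of the 9 genes in each of the 3 pairs. Of all probe sets 41.5%, and of those not dim 8.14%, had every mutant phenobarbital array below every wild-type one. Such probe sets are lower in each pair as well, and the full share lower in each pair was not counted. The mutant minus wild-type difference of the mean of the 9 was -0.46, -0.51 and -0.49 in the 3 pairs. For betaTub85D it was -0.53, -0.49 and -0.44, and for Mst77F -0.53, -0.58 and -0.58. These paired differences varied far less than the arrays of a group.

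A fit on the 6 phenobarbital arrays with the pair as a block was added after seeing the data. It called 1 of the 9 genes, janB, where 1.13% of all probe sets were called. The mutant value of janB fell by 0.60 ± 0.03 (SE; adjusted p = 0.040, limma). Mst77F (-0.57 ± 0.02), ocn (-0.55 ± 0.02) and betaTub85D (-0.49 ± 0.03) had adjusted p from 0.036 to 0.038 but were under the 1.5-fold minimum. An adjusted p under 0.05 was reached by 4 of the 9 genes and by 3.64% of all probe sets. An unadjusted one was reached by 9 of the 9 and by 25.2% of all probe sets. The 9 genes share the same arrays and their values moved together, so they are not 9 separate observations. The fit has 2 residual degrees of freedom (2.90 with the prior) and rests on 3 pairs, a pairing that the r values cannot establish.

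The difference between the 2 phenobarbital effects, tested as the interaction, ran from -0.71 ± 0.49 for Mst98Cb to -0.45 ± 0.43 for dj (SE; adjusted p = 0.84 for each of the 9, limma). Here 0 probe sets of 18769 (0%) were called, 624 had an unadjusted p under 0.05, and 0 of the 9 did, or 1 without the third wild-type phenobarbital array. The intervals spanned -1.83 to 0.66, so the data show neither a different nor a like response of the genotypes. The median of -0.62 was -0.40 without the third mutant sucrose array and -0.41 without the third mutant phenobarbital array. In the other direction, it was -0.83 without the second wild-type sucrose or the third wild-type phenobarbital array. Without the second mutant sucrose array it was -0.81. Averaged over both genotypes, the phenobarbital effect on the 9 genes ran from -0.59 ± 0.20 for betaTub85D to -0.37 ± 0.22 for dj (SE). It gave 0 calls (adjusted p 0.11 to 0.36, limma), where 5.70% of all probe sets were called. An unadjusted p under 0.05 was reached by 5 of the 9 genes and by 3931 of the 18769 probe sets. Without the second wild-type sucrose, the third wild-type phenobarbital, the third mutant sucrose or the third mutant phenobarbital array, 1 gene had an unadjusted p under 0.05, and without the first or the second mutant sucrose array 2 and 9 had. The mean genotype effect ran from -0.29 for janB to -0.09 for djl, with 0 calls where 0.458% were called. Its median of -0.21 was -0.07 without the second wild-type sucrose array, -0.10 without the second mutant sucrose array and -0.11 without the third mutant phenobarbital array. It was -0.28 without the first wild-type sucrose, the third mutant sucrose or the third wild-type phenobarbital array.

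**Figure D2:**
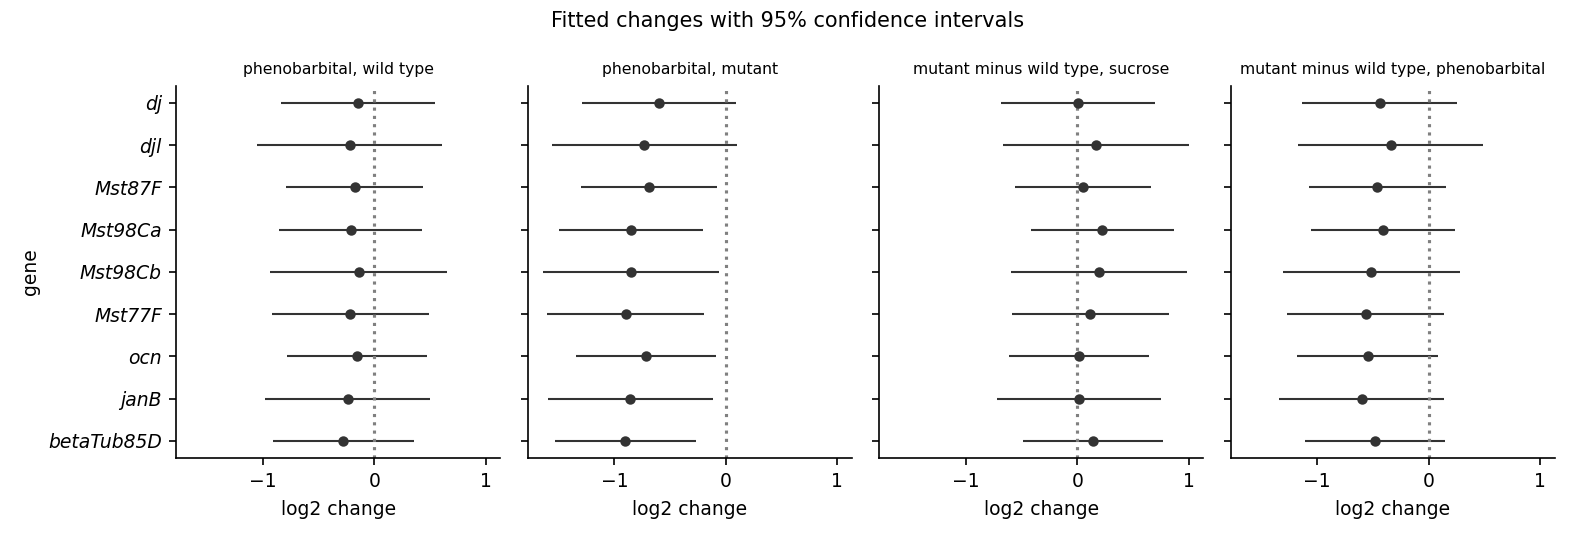
Fitted log2 change (horizontal axis) of each of the 9 genes (vertical axis) in 4 comparisons, with 95% confidence intervals from the unpaired limma fit as lines. All 9 intervals include 0 in wild type and in both genotype comparisons, and 7 of 9 lie below 0 for phenobarbital in the mutant, before adjustment over all probe sets.

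The arrays of a group differed widely in these genes, and they did so for all 9 at once. The pooled SD between arrays of a group was 0.35 to 0.47 for the 9 genes (median 0.39), against a median of 0.22 over the 10341 probe sets that were not dim. Over all 12 arrays each gene spanned 1.41 to 1.81 on the log2 scale, which is 2.65-fold for Mst87F and 3.52-fold for janB. The lowest array was the third mutant array on phenobarbital for each of the 9. The highest was the second wild-type array on sucrose for dj, djl, ocn and janB, and the third mutant array on sucrose for the other 5.

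Each gene was centred on its own mean over the 12 arrays, and the mean of the 9 centred values was taken as the level of the set on an array. On sucrose this level was -0.12, 0.69 and 0.02 in wild type and 0.35, -0.12 and 0.67 in the mutant. On phenobarbital it was 0.23, 0.17 and -0.41 in wild type and -0.23, -0.34 and -0.90 in the mutant. Both sucrose groups thus held arrays near 0 and an array near 0.7. The span of this level within 1 group was 0.81 and 0.64 for the wild-type sucrose and phenobarbital arrays, and 0.79 and 0.67 for those of the mutant.

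Once this shared level was taken off, little was left for single genes. The SD over arrays was 0.41 to 0.51 before and 0.07 to 0.10 after for 8 of the 9 genes. For the near-dim dj it was 0.42 before and 0.16 after, with its largest departures on the third wild-type phenobarbital array (0.31 above the set) and the third mutant sucrose array (0.24 below it, written -0.24). Pearson's r between a gene and the mean of the other 8 over the 12 arrays was 0.92 for dj and 0.97 to 0.99 for the others, and Spearman's rho was 0.90 for dj and 0.94 to 0.99 for the others. Without the 2 arrays farthest from the median level, r was 0.86 for dj and 0.95 to 0.99 for the others. These are descriptions over arrays that share one normalization, with no test. Between neighbours r was 0.92 for dj and djl, 0.96 for Mst98Ca and Mst98Cb and 0.99 for ocn and janB. Over all 36 pairs, these included, the median was 0.97 and the range 0.88 to 0.99. The pair of ocn and janB lay above that median and the other neighbours below it.

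**Figure D3:**
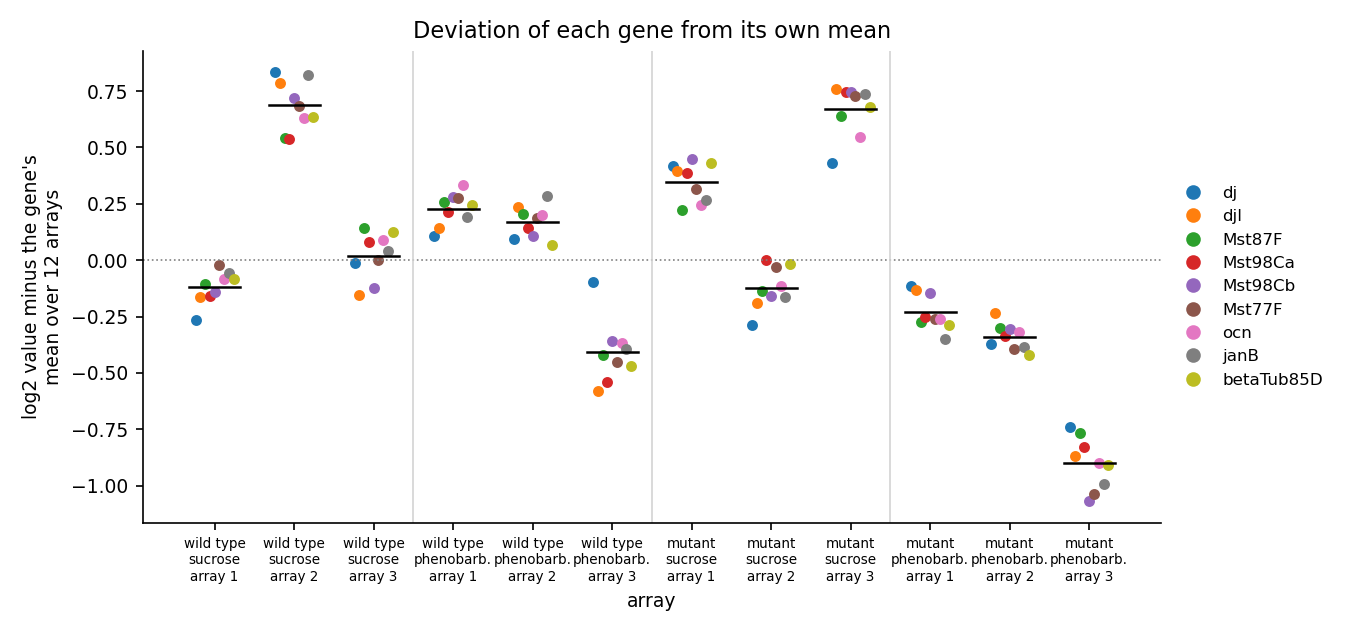
Log2 value minus the mean of the same gene over 12 arrays (vertical axis) for each array (horizontal axis), with 1 point per gene and a bar for the mean of the 9 genes. The 9 points of an array lie close together, while the bars range from -0.90 to 0.69 and differ widely between arrays of 1 group.

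Many other probe sets shared this pattern. Of 9264 probe sets outside the 9 that named 1 gene and were not dim, 1044, or 11.3%, had an r above 0.9 with the level of the set, and 126 had one below -0.9. The median was -0.31. The most similar were TrxT, CG1690, Dpy-30L2, CG12069, CG7634, Tektin-A, CG18336, CG31988, exu and CG14718, with r from 0.996 to 0.998 over the 12 arrays. When deviations from group means were used in place of the values, the most similar were SdhBL, CG5089, CG12069, CG16741, TrxT, Dpy-30L2, CG15124, CG31988, GC2 and CG32445, with r from 0.997 to 0.999. Of the genes next to the 9 in chromosome order, CG1979 beside dj, Mst84B beside djl and UQCR-14L beside Mst98Cb had r of 0.989, 0.992 and 0.982. ZIPIC, beside ocn, had an r of -0.81, and Pka-R1, beside Mst77F, one of 0.54.

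Other genes of late spermatogenesis were described from lists chosen with earlier results of these data known. Of 11 measured genes of sperm chromatin and tail, among them the Mst84D genes of the Mst(3)CGP family, 0 were called in wild type or in the mutant on phenobarbital. Their median log2 changes were -0.16 and -0.72. In these contrasts, and so for the lists that follow, 4.27% and 4.62% of all probe sets were called. Mst84Dc, a sperm tail gene and the brightest, was at -0.16 ± 0.26 in wild type and -0.72 ± 0.26 in the mutant (SE, no call). The 10 that were not dim had r from 0.93 to 0.995 with the level of the 9 genes. The 4 measured sperm leucyl aminopeptidase genes, whose products are abundant in sperm, had 0 calls and medians of -0.24 and -0.84. S-Lap7 was at -0.19 ± 0.27 in wild type and -0.87 ± 0.27 in the mutant (SE). The 15 measured cup and comet genes, a group transcribed after meiosis, had 0 calls and medians of -0.23 and -0.74. By the brightest probe set of each gene, 15 of 15 were below 0 in both genotypes, where the median over all probe sets was 0.02 and 0.003. Other probe sets of r-cup disagreed in wild type, at 0.17 ± 0.31 and, for a dim one, 0.05 ± 0.04 (SE). The 15 genes share the same arrays and had r from 0.80 to 0.99 with the level of the 9 genes, so they are not 15 separate observations. Of the cup genes, w-cup was at -0.22 ± 0.32 and -0.80 ± 0.32, while f-cup was at -0.08 ± 0.16 and -0.16 ± 0.16.

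Testis forms of proteasome subunits were often near background. Of 12 measured genes 6 were dim, 0 were called, and the medians were -0.20 in wild type and -0.60 in the mutant. Prosbeta5R1, the brightest, was at -0.24 ± 0.35 in wild type and -0.88 ± 0.35 in the mutant (SE; adjusted p = 0.24 in the mutant, limma). The 12 measured regulators of spermatocytes, which include the meiotic arrest genes that switch on the late programme, were mixed, with 5 dim, 1 called and medians of -0.07 and -0.29. One of them, mia, which encodes a testis form of a TAF subunit of the transcription factor TFIID, fell in wild type by 0.82 ± 0.14 (adjusted p = 0.0096) and was at -0.47 in the mutant with no call. Its r with the 9 genes was 0.55. The Cdc25 phosphatase gene twe, needed for meiosis in both sexes, had an r of -0.70 with them.

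The 6 tubulin paralogs of betaTub85D that were not dim had r from -0.78 to 0.83 with the level of the 9 genes. Of 7 measured, betaTub60D fell in wild type by 0.76 ± 0.10 (adjusted p = 0.0015, limma) and was at -0.55 ± 0.10 in the mutant, where its adjusted p was 0.0097 but the change was under the 1.5-fold minimum. The widely expressed betaTub56D was at 0.03 ± 0.15 in wild type and 0.15 ± 0.15 in the mutant (SE, no call). Its r with the level of the 9 genes was -0.77, and that of alphaTub67C, the alpha-tubulin of the egg, was -0.73. On the second wild-type sucrose array, where the level of the 9 genes was highest (0.69), alphaTub67C had its lowest value (10.73). On the third mutant phenobarbital array, where that level was lowest, alphaTub67C had its highest value (12.30). On the third mutant sucrose array, where the level was 0.67, alphaTub67C was at 11.63, near its mean of 11.68. Of the 18 female genes that were not dim, 14 had an r below 0. The vitelline membrane genes Vm26Aa and Vm34Ca were among the other 4, with r of 0.62 and 0.57, and fell on phenobarbital in both genotypes. Vm26Aa lay between 8.82 and 13.04 on sucrose and between 3.32 and 4.26 on phenobarbital, and Vm34Ca between 8.49 and 13.04 and between 3.33 and 5.08. On phenobarbital both were near or under the dim limit, so no size is given for their fall. Of the yolk protein genes, Yp1 was at 0.07 ± 0.09 in the mutant, with an r of -0.59, and Yp3 at 0.15 ± 0.17, with an r of -0.56. Yp2 was at -0.82 ± 0.21 in wild type (SE; adjusted p = 0.057, limma) and -0.54 ± 0.21 in the mutant, with an r of 0.02. The part of the female genes in the values of the 9 genes was not tested.

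**Figure D4:**
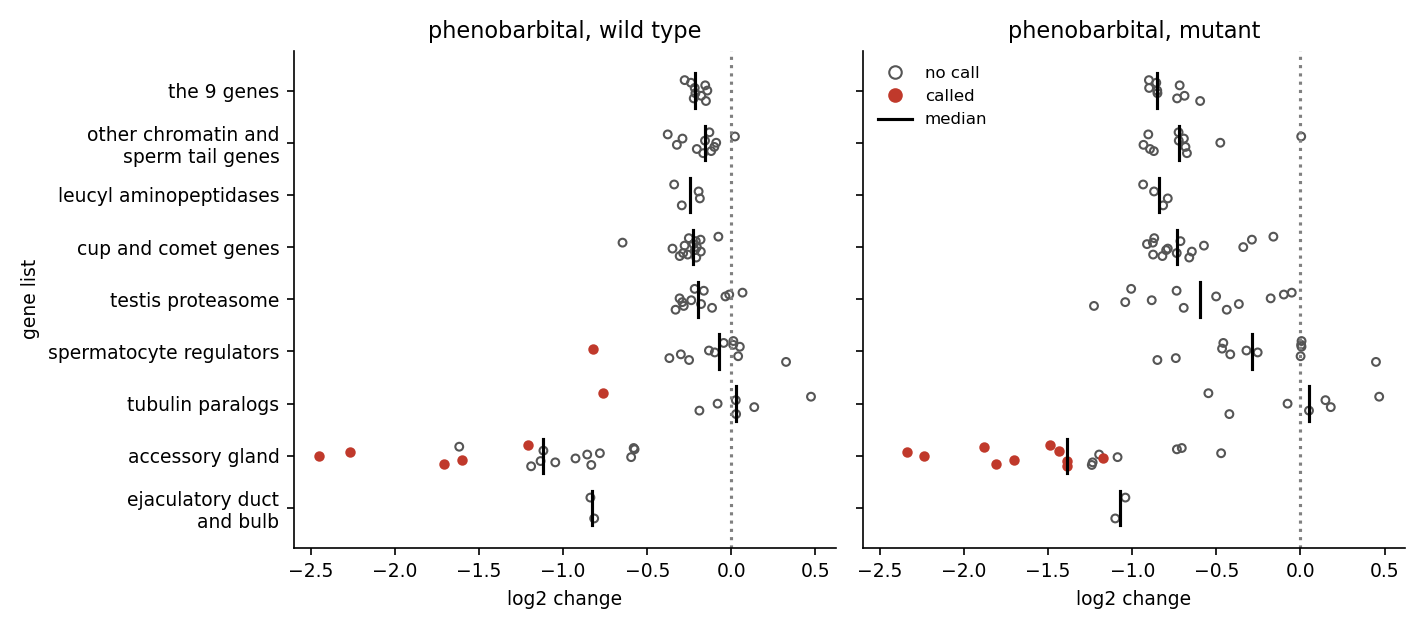
Log2 change on phenobarbital (horizontal axis) in wild type and in the mutant for each gene list but that of the female genes (vertical axis). There is 1 circle per gene, filled where called, and a bar at the median. The female genes, some of which were called lower, are not drawn. The 9 genes hold no filled circle, while of the accessory gland genes 5 are filled for wild type and 10 for the mutant.

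The accessory gland, the other large source of male-specific transcripts, makes seminal fluid proteins and holds no germ cells. Of its 17 measured genes 5 fell in wild type on phenobarbital, where 375 of all probe sets (2.0%) were called lower, and 10 in the mutant, where 1.53% were. The list had medians of -1.12 and -1.39, against -0.21 and -0.85 for the 9 genes. In wild type Acp76A fell by 2.45 ± 0.45, Acp53C14c by 2.27 ± 0.39, Acp29AB by 1.71 ± 0.37 and Acp36DE by 1.60 ± 0.36 (SE; adjusted p 0.0089 to 0.033, limma). In the mutant Acp53C14c fell by 2.34 ± 0.39, Acp76A by 2.24 ± 0.45, Acp26Aa by 1.88 ± 0.41 and Acp29AB by 1.81 ± 0.37 (adjusted p 0.0071 to 0.026). These counts depended on the samples in the fit, with 1 call in each genotype when only the 2 groups compared were fitted, and in the mutant 1 without the first or the last sucrose array, 2 without the last phenobarbital array and 4 without the second. In wild type the count was 2 without any 1 of the 3 sucrose arrays or without the second or the last phenobarbital array, 3 without the first mutant sucrose or the second mutant phenobarbital array, and 8 without the last mutant phenobarbital array. Averaged over both genotypes 16 of the 17 were called lower, and 12 to 16 were with any 1 array left out. The 2 measured genes of the ejaculatory duct and bulb, Dup99B and EbpII, were not called in either genotype. Averaged over both they were called lower, by 0.94 ± 0.21 and 0.96 ± 0.22, in a contrast where 2.69% of all probe sets were.

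The distance between the male tissues was read on each array as the mean centred value of the 17 accessory gland genes minus that of the 9 genes. On sucrose it was 0.52, 0.18 and 0.55 in wild type and 0.40, 0.38 and 0.37 in the mutant. On phenobarbital it was -0.43, -0.61 and -0.72 in wild type and -0.16, -0.13 and -0.35 in the mutant. The 6 sucrose arrays all lay above the 6 phenobarbital arrays, and the 3 wild-type phenobarbital arrays all lay below the 3 mutant ones. On the first and second wild-type phenobarbital arrays the centred values had opposite signs, with the 9 genes at 0.23 and 0.17 and the accessory gland genes at -0.21 and -0.44. The distance was largest on the third, where the 9 genes were at -0.41 and the accessory gland genes at -1.12. No test was made on these scores, since both lists were chosen with earlier results known.

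**Figure D5:**
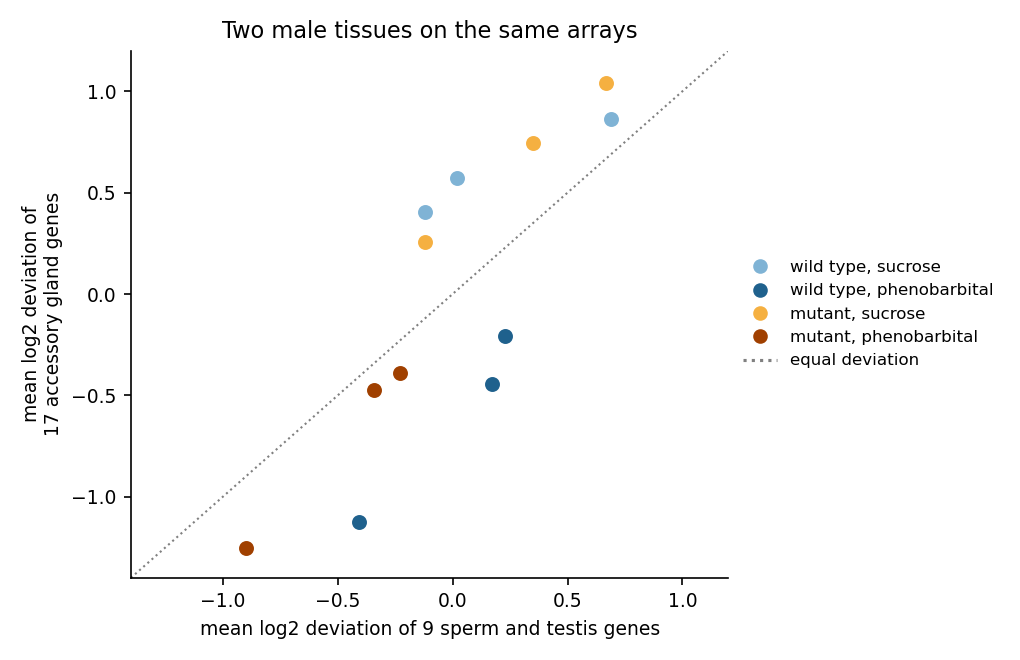
Mean centred log2 value of the 17 accessory gland genes (vertical axis) against that of the 9 sperm and testis genes (horizontal axis), with 1 point per array and colours for groups. The dotted line marks equal deviation. The 6 sucrose arrays lie above the line and the 6 phenobarbital arrays below it.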

How the data were processed

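The authors deposited normalized intensity values per probe set for 12 arrays, made with GCRMA per the submitters' processing notes, with no version stated there. GCRMA corrects background, normalizes arrays and summarises probes. The intensities were read as linear from their range, and log2 was taken here with no further scaling. Gene names came from the platform annotation. Linear models with 1 mean per group were fitted to all 18769 probe sets and 12 arrays with limma 3.58.1 in R 4.3.3 (8 residual degrees of freedom, 8.82 with the prior), which also gave the SEs and 95% intervals. The fitting was tested on simulated data. Calls needed an adjusted p under 0.05 and at least 1.5-fold. Other lists used 1 probe set a gene, the one of highest mean. From those lists up to 4 called genes per contrast and the 3 brightest could be named, and the 10 genes of highest r outside the members. The members and lists were chosen with earlier results of these data known. Alternatives were other fold minimums, an intensity trend, quantile normalization, a pseudocount of 16, a filter on dim probe sets, the replicate number as a block, a fit on the groups compared, and leaving out each array. Replicate numbers came from the array titles, and deviations of same-numbered arrays from their group means correlated at 0.31, 0.35 and 0.70 between genotypes on phenobarbital. A paired fit on those 6 arrays was added after seeing the data. Figures were drawn with Python 3.11.15 and matplotlib 3.10.9. The number of arrays limits the precision.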

Additional observations from a re-analysis of the deposited data

How the results depend on the processing

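The count of called genes among the 9 was 0 under every alternative but 1, in 7 contrasts, or in the 4 contrasts of single groups where only the groups compared were fitted. The exception was added after seeing the data. A replicate block on the 6 phenobarbital arrays alone called 1 gene between genotypes, janB, and 213 probe sets against 22. Same-numbered arrays deviated together in the genotype comparison on phenobarbital and there the block over all 12 arrays left 16 calls over all probe sets against 22. In the other comparisons r ran from -0.71 to 0.65 with both signs or negative. In wild type, phenobarbital against sucrose, it was -0.51, 0.63 and 0.65. With 3 arrays a group these r values neither establish nor exclude a pairing in any comparison. With the block the accessory gland counts were 2 in wild type and 5 in the mutant, against 5 and 10. With dim probe sets removed the wild-type count was 10. With only the groups compared in the fit, it was 1 in each genotype. With the block 5 of the 9 genes had an unadjusted p under 0.05 in the mutant, against 7. Of single genes, dj changed sign in wild type on phenobarbital with quantile normalization (0.0081 against -0.15) and between genotypes on sucrose with the pseudocount (-0.0067 against 0.0033).

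Leaving out 1 array turned the sign of small differences. In wild type on phenobarbital the range was -0.38 to 0.17 for dj, -0.38 to 0.091 for djl, -0.33 to 0.038 for Mst87F, -0.37 to 0.026 for Mst98Ca, -0.29 to 0.14 for Mst98Cb, -0.35 to 0.013 for Mst77F, -0.30 to 0.056 for ocn and -0.40 to 0.037 for janB. Between genotypes on sucrose it was -0.22 to 0.33 for dj, -0.051 to 0.48 for djl, -0.15 to 0.24 for Mst87F, -0.0069 to 0.48 for Mst98Cb, -0.079 to 0.35 for Mst77F, -0.15 to 0.22 for ocn, -0.21 to 0.29 for janB and -0.020 to 0.34 for betaTub85D. The mean genotype effect ranged from -0.22 to 0.069 for djl and from -0.21 to 0.0025 for Mst98Ca. No phenobarbital difference of the 9 genes in the mutant changed sign. Called genes of the other lists, the female genes left aside, lost a call 106 times, counted over genes, contrasts and arrays left out. Under other settings they lost a call 43 times, and they changed sign 0 times. Called female genes were not followed in this way. The cause was not tested.

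Leaving out 1 array gave 19 to 185 calls over all probe sets between genotypes on sucrose, 45 to 230 for the mean genotype effect and 0 to 15 for the interaction, each highest without the third wild-type sucrose array. Calls over all probe sets were 506, 550, 608 and 41 with a 2-fold minimum, against 801, 867, 1070 and 86 for phenobarbital in wild type, in the mutant, on average, and for the mean genotype effect. With no minimum the last 2 were 1835 and 158. A fit on the groups compared gave 391 in wild type, 4 between genotypes on sucrose (against 40) and 11 on phenobarbital (against 22). An intensity trend gave 34 for the latter and 7 for the interaction, the pseudocount 2 for the interaction, and removing dim probe sets 131 for the mean genotype effect. The dj probe set lay too close to the dim limit for its changes to be measured well.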

Other observations

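The boule gene, bol, which encodes an RNA-binding protein needed for meiosis in the male germ line, was measured by 3 probe sets that disagreed. It is named here after its values were seen. The brightest probe set moved with the late germ line genes (r = 0.97 over the 12 arrays with their mean level), and its mean genotype effect was -0.29 ± 0.26 (SE; adjusted p = 0.44, limma). The next brightest read 7.03, 7.90 and 7.37 on the wild-type sucrose arrays and 6.92, 6.60 and 6.55 on the wild-type phenobarbital arrays. On the arrays assigned to the mutant it read 6.11, 5.94 and 5.60 with sucrose and 5.90, 5.64 and 5.19 with phenobarbital. All 6 mutant arrays lay below all 6 wild-type arrays, and the mean genotype effect of -1.34 ± 0.18 was called (SE; adjusted p = 0.015, limma), also under each of the 19 alternatives run. In that contrast 0.458% of all probe sets were called. The share of probe sets with all 6 mutant arrays lower was not counted. On phenobarbital alone, every mutant array lay below every wild-type one for 41.5% of all probe sets, and for 8.14% of those not dim. Tested on 1 diet alone, its adjusted p was 0.053 on sucrose and 0.24 on phenobarbital. The remaining probe set was dim, at 1.76 to 1.78 on the 12 arrays. The files used here do not say which transcripts each probe set reads.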
